A study of Rattus with 6 samples.

Results

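Genes of the plasminogen activation system were examined in cultured bone marrow mesenchymal stem cells of rats with chronic kidney disease (CKD) and of healthy rats. The 5 genes encode both plasminogen activators (Plau and Plat), the urokinase receptor (Plaur) and the secreted serpins Serpine2 and Serpinf1. They were taken by symbol from the 16690 genes of the deposited table, and all 5 were found there. Each group had 3 libraries. The CKD libraries came from Sprague Dawley rats in which kidney disease had been modelled by a method the labels do not give, and the control libraries from healthy rats of that strain. All are labelled wild-type, and no age or drug treatment is stated. The cells were grown from femur and tibia marrow for a few passages and are described as positive for CD29 and CD90 and negative for CD34 and CD45 by flow cytometry. RNA was measured by poly-A selected, strand-specific sequencing, with levels given as FPKM, fragments scaled to gene length and library depth. The protocol speaks of exosome RNA where the design text speaks of the cells, so which of them was sequenced is uncertain.

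Plasminogen, a precursor made mainly by the liver, is cut to the protease plasmin by urokinase (the product of Plau) or by tissue plasminogen activator (the product of Plat). Urokinase is held at the cell surface by its receptor, and plasmin then clears fibrin, degrades matrix and activates other proteases and growth factors. Most serpins are inhibitors that trap their target protease in a dead complex. Protease nexin 1, the product of Serpine2, blocks thrombin, urokinase and tissue plasminogen activator. Pigment epithelium-derived factor, the product of Serpinf1, keeps the serpin fold without inhibiting proteases and is known for its action against vessel growth and for its role in bone, where its loss in humans causes a form of brittle bone disease.

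Recovered depth ran from 34404037 to 43055203 fragments in CKD libraries and from 38289955 to 46892613 in control libraries. CKD replicates 2 and 3 were nearly alike across genes (Pearson r of log2 levels 0.996), as were control replicates 2 and 3 (r = 0.998), whereas CKD replicate 1 was closest to control replicate 1 (r = 0.967) and less alike its own group (r = 0.935 with replicate 2 and 0.944 with replicate 3). Groups follow titles and column codes. Library names start with the group, except for control replicate 3, whose name starts unlike those of the other controls. The disease model tag contradicts the groups in CKD replicate 1, which it gives as control, and in control replicate 2, which it gives as CKD. The design text speaks of biological replicates, but the library names of CKD replicates 1 and 3 differ only by a suffix, as do those of control replicates 1 and 2. Whether these came from separate animals is not stated, so p-values measure the spread between libraries, part of which may be technical. Of 14 stromal markers, 13 stood at 1 FPKM or more in every library, and Lepr was the exception. Their sum lay between 12426 and 18475 FPKM in CKD libraries and between 15390 and 16444 FPKM in control libraries. The 20 haematopoietic and macrophage markers summed to 302, 3395 and 2309 FPKM in CKD replicates 1, 2 and 3, against 421, 22.9 and 14.7 FPKM in control replicates 1, 2 and 3, and 2 of the 20 were at 0 in control replicate 3 and none in the other libraries. The 8 endothelial markers in the table summed to between 6.55 and 13.1 FPKM in CKD libraries and between 7.50 and 13.9 FPKM in control libraries. In such bulk samples, more cells of a type and more RNA per cell cannot be told apart.

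In FPKM, the receptor, tissue plasminogen activator and pigment epithelium-derived factor genes were higher in all 3 CKD libraries than in any control library. Urokinase was high in CKD replicates 2 and 3 alone, and Serpine2 stood out in a single control library. None of the 5 genes passed the test at an adjusted p of 0.05 (limma on log2(FPKM + 1), Benjamini-Hochberg over 10638 genes), where 2.07% of all tested genes did. At an unadjusted p under 0.05 there were 2, Plaur and Plat, beside 22.1% of all tested genes. Limma-voom on recovered fragment counts called 0 of the 5 and 0.912% of the tested genes. In FPKM, the groups did not overlap, with CKD higher, for Plaur, Plat and Serpinf1. That is 3 of 5, and the same held for 18.3% of all tested genes. With scaling by size factors instead, only Plaur of these 3 keeps its groups apart. The share over all tested genes on that scale was not computed. The median log2 fold change was 0.85 over the 5 genes and 0.053 over all tested genes.

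**Figure D1:**
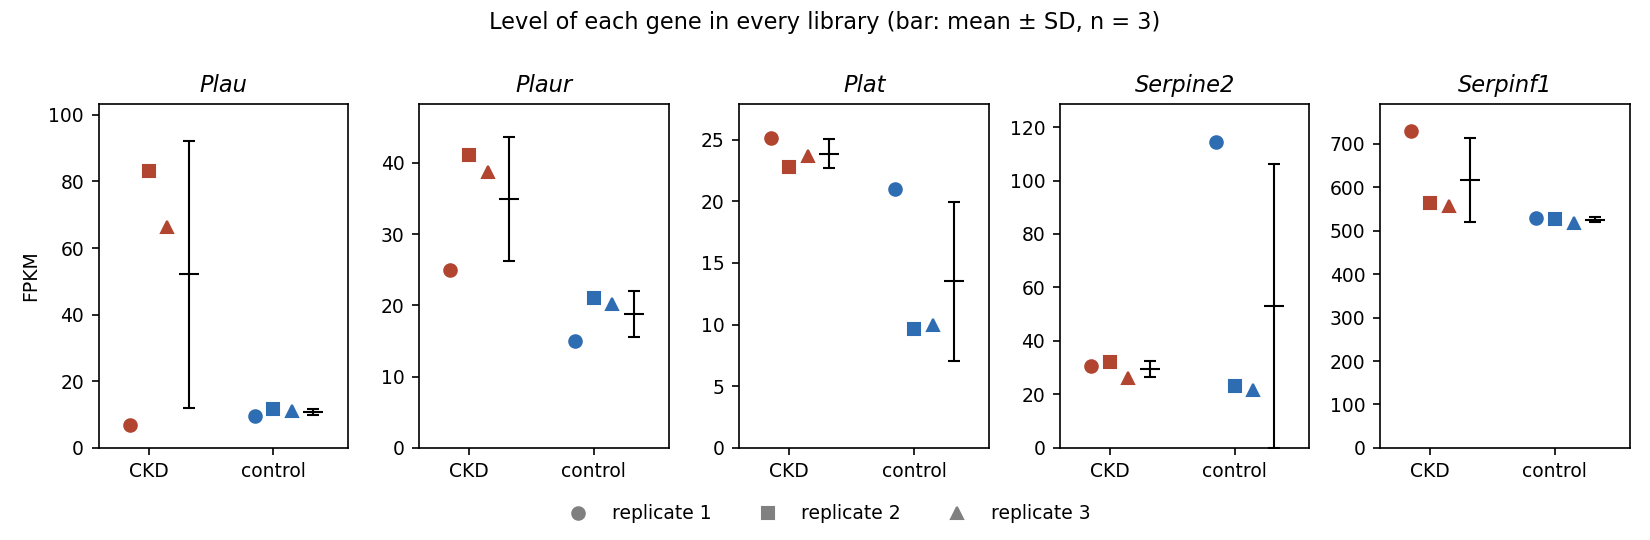
FPKM of Plau, Plaur, Plat, Serpine2 and Serpinf1 (1 panel each, with its own vertical axis from 0) in 3 CKD and 3 control libraries, with symbols for the replicate number and a bar for mean ± SD. Plau reached 83.1 and 66.3 FPKM in CKD replicates 2 and 3 and 6.88 FPKM in CKD replicate 1, and Serpine2 reached 114 FPKM in control replicate 1.

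Plau (NCBI Gene 25619), the urokinase gene, had 6.88, 83.1 and 66.3 FPKM in CKD replicates 1, 2 and 3, against 9.68, 11.5 and 11.1 FPKM in control replicates 1, 2 and 3. The 3 controls lay close together, 2 of the CKD libraries lay far above them and CKD replicate 1 had the lowest level of all 6, so the groups overlapped. The CKD mean was 52.1 ± 40.1 FPKM and the control mean 10.8 ± 0.979 FPKM (SD, n = 3 each), with a ratio of means of 4.83. Its log2 fold change of 1.59 ± 0.91 SE had a 95% confidence interval from -0.65 to 3.83, and it did not pass (limma adjusted p = 0.352). The highest library had 12.1 times the FPKM of the lowest, the widest range of the 5 genes. Each of these values rests on at least 618 fragments.

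The first replicates and the later ones gave opposite directions for Plau. CKD replicates 2 and 3 averaged 74.7 FPKM against 11.3 FPKM in control replicates 2 and 3, a ratio of 6.59. CKD replicate 1 had 0.711 times the level of control replicate 1. Without CKD replicate 1 the log2 fold change was 2.68 and passed (limma adjusted p = 0.00456), in a fit that called 15.1% of all tested genes. Dropping the pair of libraries with contradictory tags gave 2.72 (limma adjusted p = 0.0402), where 2.80% of all tested genes were called. With the first replicate of each group left out it was 2.61 (limma adjusted p = 3.06e-06), and 55.0% of all tested genes were called in that fit, which takes its spread from pairs of nearly alike libraries. Plau was far higher in CKD replicates 2 and 3 than in any control library, and it was called in 3 of the 16 alternative fits, all of them without CKD replicate 1.

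Plat (NCBI Gene 25692), which encodes tissue plasminogen activator, was the steadiest activator across CKD. It measured 25.1, 22.8 and 23.6 FPKM in CKD replicates 1, 2 and 3, against 21.0, 9.63 and 9.98 FPKM in control replicates 1, 2 and 3. All CKD libraries were above all controls in FPKM, but control replicate 1 came close to them while the other controls lay much lower. With scaling by size factors, CKD replicate 2 falls just below control replicate 1 (log2 fold change 0.78, limma adjusted p = 0.207). Control replicates 2 and 3 were also the libraries with the lowest sums of haematopoietic markers, 22.9 and 14.7 FPKM, against 302 to 3395 FPKM in CKD libraries and 421 FPKM in control replicate 1, and the part of such cells in the level of Plat was not tested. CKD libraries averaged 23.8 ± 1.19 FPKM and control libraries 13.5 ± 6.44 FPKM (SD, n = 3 each). The log2 fold change was 0.86 ± 0.29 SE, with a 95% confidence interval from 0.14 to 1.58, and did not pass (limma adjusted p = 0.172). Without control replicate 1 it was 1.20 and passed (limma adjusted p = 0.00474), where 12.0% of all tested genes were called. It also passed with the first replicate of each group left out, at 1.16 (limma adjusted p = 8.16e-06), where 55.0% of all tested genes were called. With groups taken from the disease model tag it was -0.0060, since that tag exchanges a high library for a low one.

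Plaur (NCBI Gene 50692), which encodes the anchored receptor that binds urokinase on the cell surface, was at 25.0, 41.1 and 38.7 FPKM in CKD replicates 1, 2 and 3, against 15.1, 21.0 and 20.1 FPKM in control replicates 1, 2 and 3. CKD replicates 2 and 3 were highest, CKD replicate 1 lay in between, and control replicate 1 was lowest. CKD replicate 1 had 1.66 times the level of control replicate 1, and CKD replicates 2 and 3 averaged 1.94 times the level of control replicates 2 and 3. Since all CKD libraries were above all controls, both ratios had to exceed 1 and are not separate support. The mean over CKD libraries was 34.9 ± 8.71 FPKM, against 18.7 ± 3.22 FPKM over control libraries (SD, n = 3 each). The log2 fold change of 0.85 ± 0.23 SE (95% confidence interval 0.29 to 1.40) had the lowest p of the 5 genes, 0.0102 unadjusted, and did not pass over all genes (limma adjusted p = 0.121). It passed without CKD replicate 1, at 1.06 (limma adjusted p = 0.0201), where 15.1% of all tested genes were called. With both first replicates left out it passed at 0.92 (limma adjusted p = 2.46e-05), where 55.0% were called.

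Serpine2 (NCBI Gene 29366), the gene of protease nexin 1, had levels of 30.5, 32.0 and 26.1 FPKM in CKD replicates 1, 2 and 3, against 114, 23.3 and 21.6 FPKM in control replicates 1, 2 and 3. Control replicate 1 was 5.10 times the mean of the other controls, and the 3 CKD libraries lay just above those. The CKD mean was 29.5 ± 3.09 FPKM and the control mean 53.1 ± 53.1 FPKM (SD, n = 3 each). The log2 fold change of -0.39 ± 0.64 SE did not pass (limma adjusted p = 0.764), with a 95% confidence interval from -1.98 to 1.20. Its direction turned without control replicate 1, to 0.38 (limma adjusted p = 0.0901). With the first replicate of each group left out it was 0.35, higher in CKD (limma adjusted p = 0.0193), where 55.0% of all tested genes were called.

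Serpinf1 (NCBI Gene 287526), the gene of pigment epithelium-derived factor, had 729, 564 and 558 FPKM in CKD replicates 1, 2 and 3, against 529, 528 and 519 FPKM in control replicates 1, 2 and 3. In FPKM the controls agreed closely, CKD replicates 2 and 3 were slightly above them, and CKD replicate 1 was the highest. CKD libraries averaged 617 ± 96.9 FPKM and control libraries 525 ± 5.68 FPKM (SD, n = 3 each), a ratio of 1.18. The log2 fold change was 0.22 ± 0.13 SE and did not pass (limma adjusted p = 0.360), with a 95% confidence interval from -0.096 to 0.54. It did not pass in any of the 16 other fits tried, and its log2 fold change ranged from -0.088 with groups by the tag to 0.43 with the haematopoietic marker mean as covariate (limma adjusted p = 0.395, unadjusted p = 0.0381, the lowest of its fits). Scaling by size factors gave 0.14 (limma adjusted p = 0.615). On that scale CKD replicate 2 falls below all controls, CKD replicate 3 lies among them and only CKD replicate 1 stands above them. The highest library had 1.41 times the FPKM of the lowest, the narrowest range of the 5 genes, and 99.4% of the genes in the table had a lower mean level.

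Fold changes in the authors' deposited table had the same signs for all 5 genes, from the same libraries. Its log2 fold changes were 2.16 for Plau (q = 0.0285) and 0.81 for Plaur (q = 0.0151), both under a q of 0.05, as were 11.3% of the genes in the authors' deposited table. The authors' deposited table gave 0.74 for Plat (q = 0.174), -0.93 for Serpine2 (q = 0.415) and 0.16 for Serpinf1 (q = 0.655). Limma on all 6 libraries called neither Plau nor Plaur.

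**Figure D2:**
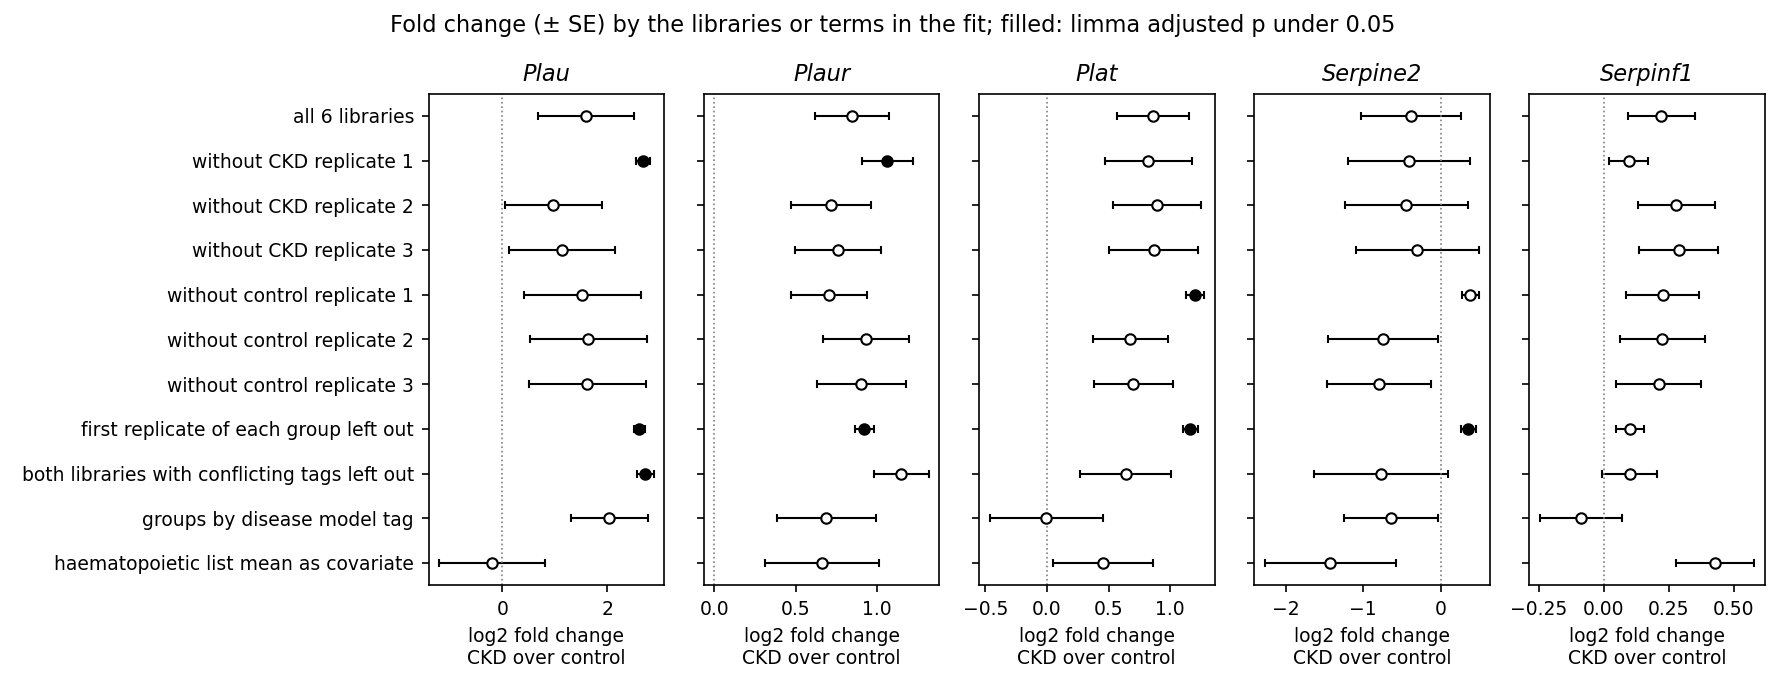
Log2 fold change of CKD over control for each gene (1 panel each, with its own horizontal axis; points are estimates, bars ± 1 SE) with all 6 libraries and with 10 other sets of libraries or terms. Filled points passed at a limma adjusted p of 0.05. Plau and Plaur passed without CKD replicate 1, at 2.68 and 1.06, where 15.1% of all tested genes passed. Plat passed without control replicate 1, at 1.20, where 12.0% of all tested genes passed.

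FPKM is per length, so levels of different genes can be set side by side, and their order differed between libraries. Serpinf1 was the highest of the 5 in every library. Plau was the lowest of the 5 in CKD replicate 1 and control replicate 1, the next to lowest in control replicates 2 and 3, and second only to Serpinf1 in CKD replicates 2 and 3. The ratio of Plau to Plaur, ligand to receptor, was 0.276, 2.02 and 1.71 in CKD replicates 1, 2 and 3, against 0.643, 0.549 and 0.553 in control replicates 1, 2 and 3. The ratio of Plau to Plat, urokinase to tissue activator, was 0.274, 3.65 and 2.81 in CKD replicates 1, 2 and 3, against 0.462, 1.20 and 1.12 in control replicates 1, 2 and 3. Urokinase transcripts thus outnumbered those of the receptor per length in CKD replicates 2 and 3 and in no other library.

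Plau and Plaur were highest in the 2 libraries that were also richest in haematopoietic markers, and macrophages are known to make both proteins. The cells are described as negative for CD45, and its gene Ptprc measured 0.783, 15.5 and 11.4 FPKM in CKD replicates 1, 2 and 3, against 1.33, 0.0140 and 0.0204 FPKM in control replicates 1, 2 and 3. The macrophage scavenger receptor gene Cd68, picked like Ptprc after its values were seen, was at 11.8, 235 and 170 FPKM in CKD replicates 1, 2 and 3, against 21.8, 1.44 and 0.566 FPKM in control replicates 1, 2 and 3. In that list 16 genes were tested, and all 16 had higher fitted levels in CKD (median log2 fold change 3.25), as did 6321 of the 10638 tested genes. The other 4 markers of the list did not reach 1 FPKM in 3 libraries and were not tested, so the 16 do not stand for the whole list. Of these 4, Adgre1, Cd163 and Spi1 had a higher mean FPKM in CKD. Cd74, under 1 FPKM in every library, had a lower one. The groups did not overlap for 0 of the 16, beside 27.8% of all tested genes. In each of the 16, CKD replicate 1 was below control replicate 1. Limma called 0 of these 16, beside 2.07% of all tested genes, and limma-voom 0, beside 0.912%. At an unadjusted limma p under 0.05 there were 10 of the 16, beside 22.1% of all tested genes. Among the other 4 libraries, the pair with more of the markers had less Plau. CKD replicate 1 had 302 FPKM of summed markers and 6.88 FPKM of Plau, and control replicate 1 had 421 and 9.68 FPKM, while control replicates 2 and 3 had 22.9 and 14.7 FPKM of markers and 11.5 and 11.1 FPKM of Plau. With the mean of the marker list as a covariate the log2 fold change of Plau was -0.19 (limma adjusted p = 0.978) and that of Plaur 0.66 (limma adjusted p = 0.580). In the same fit it was 0.46 for Plat (limma adjusted p = 0.771), -1.43 for Serpine2 (limma adjusted p = 0.629) and 0.43 for Serpinf1, so Plau, Plaur and Plat came out lower than without the covariate, Serpine2 further below 0 and Serpinf1 higher. None of the 5 genes passed in that fit, which called only 7 genes higher and 11 lower of the 10638 tested. The part of such cells in the levels of Plau and Plaur was not tested.

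**Figure D3:**
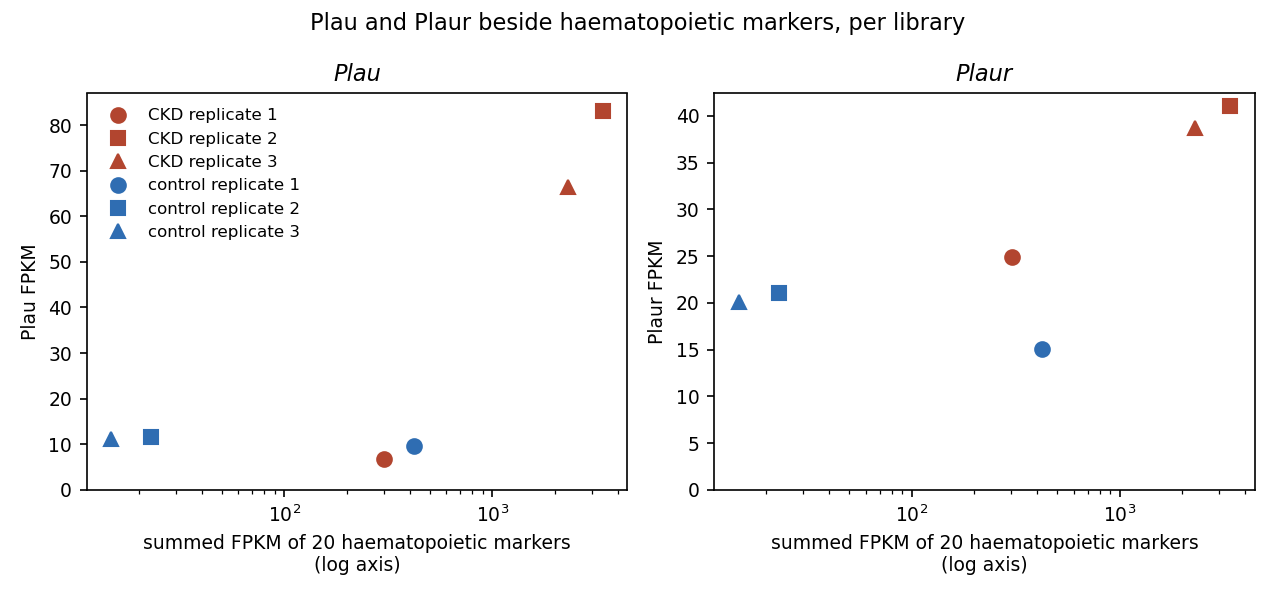
FPKM of Plau (left) and Plaur (right) against the summed FPKM of 20 haematopoietic and macrophage markers on a log axis, 1 point per library, CKD in red and control in blue. Lyz2 alone made up most of the sum in the CKD libraries and in control replicate 1. CKD replicates 2 and 3, at 3395 and 2309 FPKM of markers, had the highest levels of both genes, and the other 4 libraries had between 6.88 and 11.5 FPKM of Plau over markers between 14.7 and 421 FPKM.

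The other genes of the system were followed through a list of 27 genes sorted by role, of which 20 were in the table and 16 were tested. None was called by limma or limma-voom, which called 2.07% and 0.912% of all tested genes. At an unadjusted limma p under 0.05, 2 were higher and 1 lower, beside 22.1% of all tested genes. The groups did not overlap for 3 of 16, beside 27.8% of all tested genes. The median log2 fold change was -0.041 over the 16 genes and 0.053 over all tested genes. Plg, the plasminogen gene itself, had at most 7 fragments in any library and was not tested. Serpinf2, which encodes the plasmin inhibitor antiplasmin, had between 3 and 19 fragments per library and was not tested.

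Among 14 tested genes of docking and clearance, none was called by limma or limma-voom, beside 2.07% and 0.912% of all tested genes. At an unadjusted limma p under 0.05, 1 was higher and 1 lower, beside 22.1% of all tested genes. The median log2 fold change was -0.041. Anxa2 and S100a10 encode the subunits of a complex that holds plasminogen and tissue activator at the surface. Anxa2 averaged 518 ± 79.5 FPKM over CKD libraries and 537 ± 65.2 FPKM over control libraries, and S100a10 averaged 418 ± 124 FPKM over CKD libraries and 414 ± 26.5 FPKM over control libraries (SD, n = 3 each). Neither passed (limma adjusted p = 0.868 and 0.957), with 95% confidence intervals of the log2 fold change from -0.45 to 0.34 for Anxa2 and from -0.55 to 0.50 for S100a10. Lrp1, the endocytic receptor that clears complexes of activator and serpin, averaged 127 ± 31.1 FPKM over CKD libraries and 160 ± 28.0 FPKM over control libraries (limma adjusted p = 0.417). Mrc2, a collagen receptor that associates with the urokinase receptor, averaged 36.8 ± 5.87 FPKM over CKD libraries and 53.3 ± 24.7 FPKM over control libraries, where control replicate 1 had 81.8 FPKM (limma adjusted p = 0.449). The groups did not overlap for Itgb3, an integrin subunit of the vitronectin receptor (log2 fold change 0.68, limma adjusted p = 0.223). Itgam and Itgb2, subunits of a leukocyte integrin, had the largest log2 fold changes of the list, 2.42 and 3.22. Neither passed (limma adjusted p = 0.258 and 0.237), and their groups overlapped. Both were high in CKD replicates 2 and 3, while CKD replicate 1 was below control replicate 1. Itgam is also among the haematopoietic markers. These 3 genes were named after their values were seen.

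**Figure D4:**
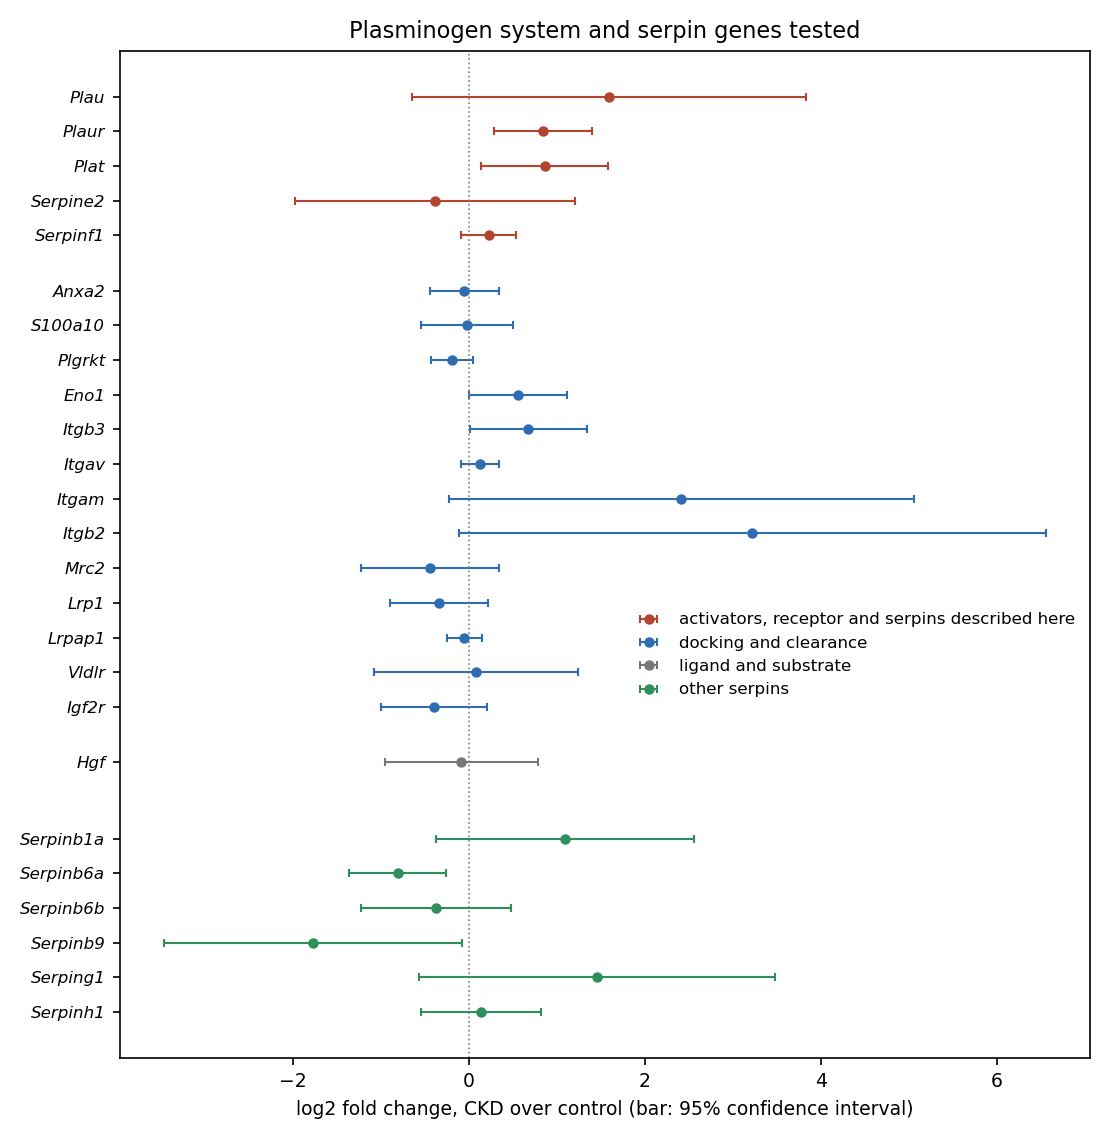
Log2 fold change of CKD over control with 95% confidence intervals for the 5 genes described here (red), 14 of the 16 tested genes of the plasminogen system by role (blue and grey) and other tested serpin genes (green). None passed at a limma adjusted p of 0.05, where 2.07% of all tested genes did. The intervals of Plaur, Plat and Itgb3 lie above 0, and those of Serpinb6a and Serpinb9 below 0.

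Of the 17 other genes whose symbol starts with Serpin, 7 were tested. None was called by limma or limma-voom, which called 2.07% and 0.912% of all tested genes. At an unadjusted limma p under 0.05, 1 was higher and 2 lower, beside 22.1% of all tested genes. Serpinh1, which encodes the collagen chaperone of the endoplasmic reticulum, averaged 835 ± 191 FPKM over CKD libraries and 774 ± 263 FPKM over control libraries (limma adjusted p = 0.808). Serping1, which encodes the inhibitor of complement C1, was likewise high in CKD replicates 2 and 3 alone. It had 7.30, 61.0 and 62.2 FPKM in CKD replicates 1, 2 and 3, against 8.16, 12.2 and 12.0 FPKM in control replicates 1, 2 and 3 (limma adjusted p = 0.349). Of the genes outside the naming rule, Serpinb9, an inhibitor of granzyme B, was picked out after its values were seen. It measured 47.1, 16.9 and 18.8 FPKM in CKD replicates 1, 2 and 3, against 32.9, 149 and 132 FPKM in control replicates 1, 2 and 3, with a log2 fold change of -1.77 (limma adjusted p = 0.212). Replicates 2 and 3 were far lower in CKD than in control, while CKD replicate 1 was higher than control replicate 1. Serpinb6a, a cytosolic serpin named on the same terms, had groups that did not overlap, at 103, 63.2 and 63.7 FPKM in CKD replicates 1, 2 and 3, against 112, 148 and 137 FPKM in control replicates 1, 2 and 3 (log2 fold change -0.81, limma adjusted p = 0.124).

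Genes with the most similar profiles were sought among 4575 tested genes with an assigned symbol and a mean of at least 10 FPKM, by Pearson r of log2(FPKM + 1) over the 6 libraries, which share their grouping and hold 2 nearly alike pairs. Plau was closest to Spp1, the osteopontin gene (r = 0.999), Glul, the glutamine synthetase gene (r = 0.998), and Stc1, the gene of the secreted hormone stanniocalcin 1 (r = 0.996). Spp1 was at 476, 2043 and 1682 FPKM in CKD replicates 1, 2 and 3, against 584, 644 and 637 FPKM in control replicates 1, 2 and 3, with CKD replicate 1 lowest as for Plau. Stc1 had levels of 0.865, 80.9 and 89.4 FPKM in CKD replicates 1, 2 and 3, against 2.26, 3.45 and 3.58 FPKM in control replicates 1, 2 and 3. The nearest genes to Plaur were Glipr1 (r = 0.997), Ncor1, a corepressor of nuclear receptors (r = 0.996), and Pcna, the sliding clamp of DNA replication (r = 0.995), although Ncor1 ranged only from 9.62 to 10.5 FPKM.

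Plat was closest to Maged2, Nolc1 and Eef1e1 (r = 0.997, 0.996 and 0.995), all high in CKD and in control replicate 1 and lower in control replicates 2 and 3. Serpine2 was closest to Clmp (r = 0.991), Fosb, an immediate early transcription factor (r = 0.989), and Hbs1l (r = 0.989). Fosb had 35.6, 28.8 and 26.3 FPKM in CKD replicates 1, 2 and 3, against 106, 23.5 and 20.2 FPKM in control replicates 1, 2 and 3, so it shared the high level of Serpine2 in control replicate 1. Serpinf1 was closest to Wdr83os (r = 0.981), Casc3, a component of the exon junction complex (r = 0.978), and Casp12 (r = 0.977), and was thus the least closely matched of the 5 genes. A high r over 6 such libraries describes these libraries only.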

How the data were processed

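Per the file headers, the authors' 1 deposited table lists 16690 genes, each with FPKM in every library, normalized count means by group, and a fold change with its log2, p-value and q-value. Numbers carry decimal commas. The submitters' processing notes name HISAT2 2.1.0, HTSeq 0.11.2, SAMtools 1.9, DESeq 1.34.1, DESeq2 1.22.2, FastQC 0.11.9 and the build mRatBN7.2, without order or settings. Genes are named as in the table, and no coordinates or sequences are given.

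Fragment counts were recovered from the FPKM values and the group means, and all 100140 came out whole within 0.01. The main test was limma 3.58.1 (R 4.3.3) on log2(FPKM + 1) of all 6 libraries, with a mean-variance trend, two-sided moderated tests and Benjamini-Hochberg adjustment at 0.05 over 10638 genes reaching 1 FPKM in 3 or more libraries. This scale understates the change of low genes. The procedure was tested on simulated data in which libraries were drawn independently. That test does not cover groups that hold a nearly alike pair and a differing first replicate, as these do. The 5 genes, the lists and the 16 alternative fits were chosen with earlier results of these data known. Named genes were the 5 genes, any called list gene, Serpinf2, Plg, Anxa2, S100a10, Lrp1, Mrc2, Serping1 and Serpinh1 whatever their p, and the 3 nearest profiles of each gene. Serpinb2 and Serpina5, of the same rule, were not found in the table under those symbols. Some list genes are counted but not reported singly here.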

Additional observations from a re-analysis of the deposited data

How the results depend on the processing

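Over 16 alternative fits, the direction of Plaur held in all, that of Plau in all but the fit with the haematopoietic list mean as covariate (log2 fold change -0.19, beside 0.66 for Plaur, 0.46 for Plat, -1.43 for Serpine2 and 0.43 for Serpinf1), those of Plat and Serpinf1 in all but the fit with groups by the disease model tag (-0.0060 and -0.088), and that of Serpine2 in all but the 2 fits without control replicate 1. With the first replicate of each group left out, log2 fold changes of 2.61 (Plau), 0.92 (Plaur), 1.16 (Plat) and 0.35 (Serpine2, direction turned) passed. That fit called 55.0% of all tested genes. With both libraries with conflicting tags left out Plau passed at 2.72, where 2.80% of all tested genes were called. Leaving out 1 library at a time gave 0.97 to 2.68 for Plau, 0.70 to 1.06 for Plaur, 0.68 to 1.20 for Plat, -0.80 to 0.38 for Serpine2 and 0.096 to 0.29 for Serpinf1.

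Over all tested genes 142 were called higher and 78 lower. Leaving out 1 library at a time gave 1 to 1139 higher and 5 to 546 lower, where dropping CKD replicate 1 gave 1139 and 463, dropping control replicate 1 gave 733 and 546, and dropping any other library gave at most 3 and 7. The counts were 81 higher without a filter on low values, 55 higher and 42 lower in limma-voom on recovered counts, 237 higher with both conflicting libraries left out, 3689 higher and 2162 lower with both first replicates left out, 7 and 11 with the marker covariate, and 0 and 0 with groups by tag (limma, 641 genes at an unadjusted p under 0.05). With the replicate number as a block (replicate block), 60 were higher and 28 lower and none of the 5 genes was called. Same-numbered libraries deviated from their group means with r of 0.036, -0.031 and 0.11. CKD replicates 1 and 3 correlated best with their own number, and CKD replicate 2 did not. Deviations from means of so few libraries, with nearly alike pairs among them, cannot settle whether same-numbered libraries belong together. The cause of these shifts was not tested.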
